A study of Mus musculus with 4 samples.

Results

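Of 10 genes chosen by platform symbol as p53-responsive growth arrest genes, together with their GADD45 and polo-like kinase relatives, 8 had a probe set of their own on the array, out of 19938 genes with one. These were Gadd45a, Gadd45b, Gadd45g, Plk2, Plk3, Mdm2, Ccng1 and Sesn1. Cdkn1a was listed only on a probe set that also carries the symbol 4930567H12Rik. Bax was not listed in the platform table, so its expression is not analysed here. The study measured mouse liver RNA on Affymetrix Mouse Gene 1.0 ST arrays in 4 groups. The 2 groups labelled KO came from SIRT6Co/Co ;Alb-Cre mice at 2 and at 8 months of age. These mice combine a conditional Sirt6 allele with Cre recombinase under the albumin promoter, active in hepatocytes. Which cells of the liver lost the gene was not measured here. The 2 groups labelled WT came from WT SIRT6 mice of the same ages. Whether these mice carried Cre or the conditional allele, and which exons the allele loses, was not given in the sources used here. Each group was 1 array of RNA combined from 3 pairs of mice, so the spread between animals cannot be measured.

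The p53 protein is a transcription factor that accumulates when DNA is damaged or growth signals are out of balance, and its targets stop the cell cycle, repair DNA or start cell death. GADD45 proteins are small stress-induced proteins that bind the replication clamp PCNA, the mitotic kinase Cdk1 and the upstream p38 kinase MAP3K4. Several of these genes also answer to other signals: Gadd45b and Gadd45g are induced by cytokines, and Plk2 and Plk3 were first described as genes induced early by serum or growth factors. In liver, p21 from Cdkn1a and the GADD45 proteins take part in the control of hepatocyte proliferation after injury.

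Median RMA log2 values lay between 3.52 and 3.58 on the 4 arrays. Signal of the Sirt6 probe set was 4.54 (2 months) and 4.46 (8 months) with the KO label, against 4.55 and 4.50 with the WT label (limma adjusted p 0.92). It therefore does not check the labels, and every direction below rests on them. None of 9 hepatocyte markers tested passed the test, although Cps1 (mean -0.24, limma adjusted p 0.059) did so in 4 of 8 alternatives and Ttr (mean 0.13, limma adjusted p 0.30) in 1. In bulk tissue, fewer cells of a type and less RNA per cell cannot be told apart. Differences between 2 arrays carry no test. The test was an additive limma model of genotype and age over the 4 arrays and 11963 genes past a filter on low values, at an adjusted p of 0.05. Its error rests on 1 residual degree of freedom, which holds how far the genotype difference changed with age, and is moderated across genes. "Rose" and "fell" are used only for genes past it.

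Of the 8 genes, 4 rose in the KO-labelled arrays (Plk3, Gadd45g, Plk2 and Ccng1), 2 fell (Gadd45b and Sesn1) and 2 did not pass the test (Mdm2 and Gadd45a). Over all genes tested, 6.81% rose and 4.26% fell, 11.1% in all. The genes were chosen with earlier results of these data known, so these shares give a scale and no test of the set. The KO-labelled and the WT-labelled arrays did not overlap for 6 of the 8 genes, beside 54.8% of all genes. These 6 are the genes that passed. Passing the test makes such a separation likely, so it is no separate support. At 2 months Plk3 and Gadd45g were at least 1.5-fold higher and Gadd45b at least 1.5-fold lower in the KO-labelled array, against 3.98% of all genes higher and 2.39% lower (6.37% either way). At 8 months Sesn1 joined Gadd45b on the lower side, where 2.41% of all genes were higher and 1.93% lower (4.34% either way). Plk3 and Gadd45g were past that fold at both ages, like 1.78% of all genes, and Gadd45b was lower at both, like 1.06% (2.84% the same way at both ages). The median difference over the 8 genes was 0.28 at 2 months and 0.23 at 8 months, beside 0.01 and 0.00 over all genes tested. Single genes ran from -1.39 (Gadd45b) to 1.80 (Plk3) at 2 months and from -1.09 to 1.31 at 8 months. The medians therefore describe no common shift.

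**Figure D1:**
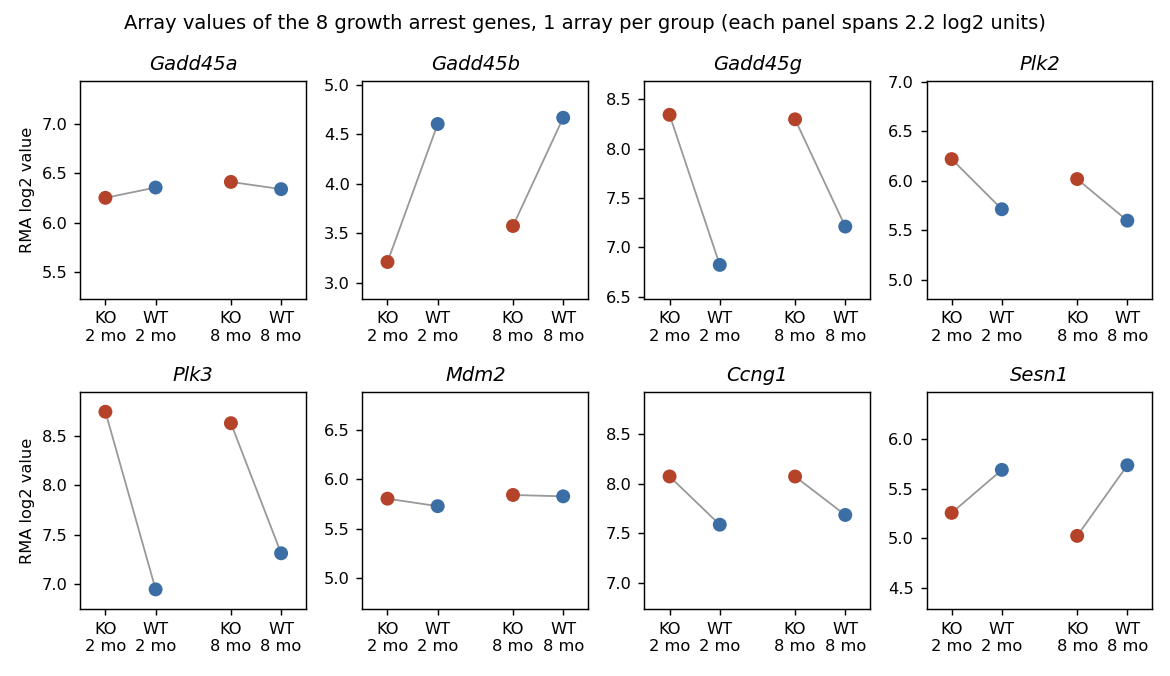
RMA log2 values (vertical axis) of the 8 growth arrest genes on the 4 arrays, 1 point per array, KO-labelled in red and WT-labelled in blue, with lines joining arrays of the same age. Plk3 and Gadd45g are high in both KO-labelled arrays and Gadd45b is low in both, while the points of Gadd45a and Mdm2 lie close together.

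The GADD45 family split 3 ways, with Gadd45g higher, Gadd45b lower and Gadd45a at like levels in the KO-labelled arrays. The stretches of 250 bases upstream of the start sites of Gadd45g and Gadd45b are shown because these genes moved in opposite directions. They are RefSeq sequences of build GRCm38.p6, at chr13:51846425-51846674 on the plus strand for Gadd45g and at chr10:80929841-80930090 on the plus strand for Gadd45b, with matches to 3 motifs in capitals. The E-box was searched as CACGTG, the box of the general factor NF-Y as CCAAT, and the TATA box as TATAAA.
Gadd45g: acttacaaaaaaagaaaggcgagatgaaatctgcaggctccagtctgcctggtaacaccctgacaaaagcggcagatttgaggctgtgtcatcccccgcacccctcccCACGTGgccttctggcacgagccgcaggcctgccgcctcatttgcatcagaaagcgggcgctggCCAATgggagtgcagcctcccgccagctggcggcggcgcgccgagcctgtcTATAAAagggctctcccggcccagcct
Gadd45b: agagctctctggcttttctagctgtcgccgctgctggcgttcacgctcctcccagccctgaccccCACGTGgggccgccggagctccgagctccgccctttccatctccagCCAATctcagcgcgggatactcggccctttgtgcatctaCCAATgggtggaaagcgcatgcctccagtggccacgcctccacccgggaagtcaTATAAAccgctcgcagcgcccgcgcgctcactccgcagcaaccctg
Both windows hold an E-box, at least 1 NF-Y box and a TATA box, in that order toward the start site. Searched on both strands in all 32841 upstream windows, these letters were found in 6.02%, 33.9% and 12.4% of windows. The matches are descriptions of the sequence and say nothing of what binds there.

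Gadd45g, whose product activates MAP3K4 and is induced by cytokines and growth arrest, read 8.34 and 8.30 in the KO-labelled arrays at 2 and 8 months, against 6.82 and 7.21 in the WT-labelled arrays. Both KO-labelled values lay more than 1 log2 unit above both WT-labelled values. The difference was 1.52 at 2 months, or 2.86-fold, and 1.08 at 8 months, or 2.12-fold. Its mean over both ages was 1.30 (SE 0.10) with a limma adjusted p of 3.6e-06, the rank 52 of 11963 counted from the highest.

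Gadd45b, induced by NF-kB and TGF-beta signalling and known as a brake on the kinase Map2k7 in the JNK pathway, read 3.21 and 3.57 in the KO-labelled arrays, against 4.60 and 4.67 in the WT-labelled arrays. The KO-labelled values were the low ones at both ages and the genotypes did not overlap. Gadd45b was 2.63-fold lower at 2 months and 2.13-fold lower at 8 months. Its mean difference was -1.24 (SE 0.14) with a limma adjusted p of 6.9e-05, the rank 29 of 11963 counted from the lowest. The 2-month KO-labelled value lay under the filter value of 3.34, which is applied to the mean of the arrays, and both KO-labelled values lay near or under the array medians. Whether the probe set was above background there is not known from these values, so the folds and the rank describe the RMA values alone. RMA compresses differences of dim probe sets.

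Gadd45a, the family member most directly tied to p53, read 6.25 and 6.41 in the KO-labelled arrays, against 6.36 and 6.34 in the WT-labelled arrays. These values overlapped between genotypes. Its mean difference was -0.02 (SE 0.10) with a limma adjusted p of 0.95.

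The 2 stress-responsive polo-like kinases both rose, and were 3.47-fold (Plk3) and 1.42-fold (Plk2) higher at 2 months. Their upstream windows of 250 bases are shown for comparison, RefSeq sequences of build GRCm38.p6 at chr4:117133964-117134213 on the minus strand for Plk3 and at chr13:110394794-110395043 on the plus strand for Plk2. Capitals mark a full cAMP response element, TGACGTCA.
Plk3: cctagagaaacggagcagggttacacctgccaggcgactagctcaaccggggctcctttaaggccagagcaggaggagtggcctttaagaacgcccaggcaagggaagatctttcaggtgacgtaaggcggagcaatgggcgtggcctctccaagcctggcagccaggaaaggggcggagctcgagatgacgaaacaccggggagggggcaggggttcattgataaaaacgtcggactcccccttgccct
Plk2: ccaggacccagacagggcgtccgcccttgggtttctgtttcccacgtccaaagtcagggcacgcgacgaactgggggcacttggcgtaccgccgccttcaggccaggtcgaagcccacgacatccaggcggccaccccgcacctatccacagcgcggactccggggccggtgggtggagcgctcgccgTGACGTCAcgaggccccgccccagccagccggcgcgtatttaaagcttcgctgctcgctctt
The element lies 62 to 55 bases before the start site of Plk2, and 1.55% of all windows hold one. In the Plk3 window none of the motifs shown here in capitals was found. A GC box, GGGCGG, lies 78 to 73 bases before its start site. Of the 12 windows of the 10 genes, 9 held a GC box, both windows of Sesn1 among them, against 32.7% of all windows. The bases G and C made up 54.0% to 71.2% of each of the 12. No share was computed for windows of like composition, so the count is a description only. An AP-1 site, a serum response element core and an NF-kB site were each found in 0 of the 12, against 6.75%, 1.47% and 3.9% of all windows. With shares this low, 12 windows are too few to read a lack of sites from. Bases outside the windows were not searched.

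Plk3, a kinase activated by oxidative and DNA damage stress that phosphorylates p53 and Jun, read 8.75 and 8.63 in the KO-labelled arrays, against 6.95 and 7.31 in the WT-labelled arrays. It had the largest genotype difference of the 8 genes at both ages, 1.80 at 2 months (3.47-fold) and 1.31 at 8 months (2.49-fold). The mean was 1.56 (SE 0.11) with a limma adjusted p of 9.4e-07, the rank 36 of 11963 counted from the highest.

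Plk2, a serum-inducible kinase of centriole duplication and a p53 target, read 6.22 and 6.02 in the KO-labelled arrays, against 5.71 and 5.60 in the WT-labelled arrays. Each KO-labelled value exceeded both WT-labelled values. The differences were 0.51 and 0.42, and the mean was 0.46 (SE 0.11) with a limma adjusted p of 0.013. The cell cycle kinase Plk1, with -0.35 at 2 months and 0.10 at 8 months, and Plk5, with -0.06 and -0.16, did not pass the test. They are named as relatives, beyond the fixed rule and after their values were seen. On the 4 arrays Plk1 read 3.43 to 3.78 and Plk5 read 3.41 to 3.60, near the array medians. Whether either was above background is not known.

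**Figure D2:**
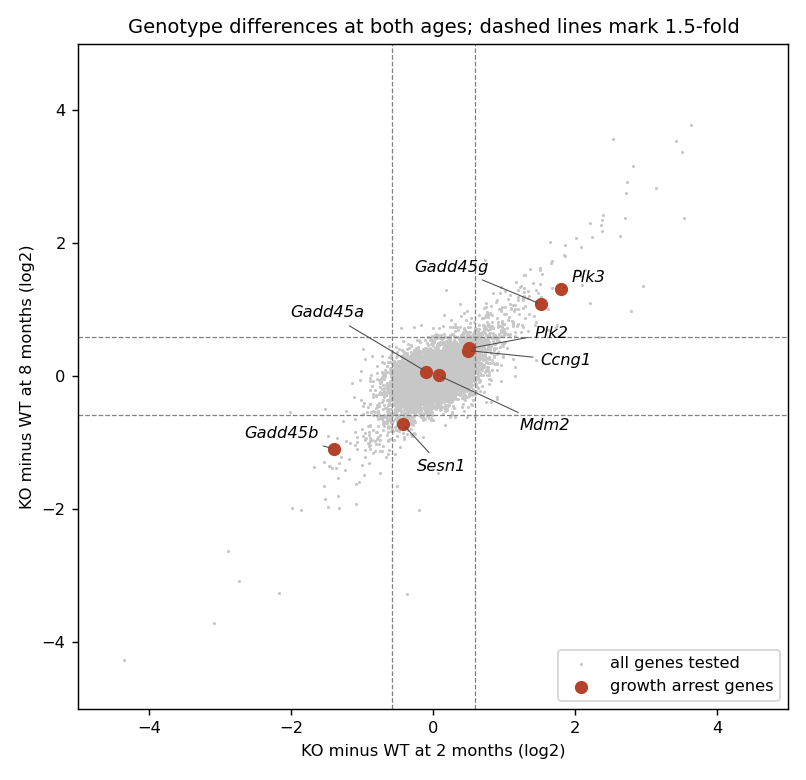
KO minus WT difference (log2) of each of 11963 genes at 2 months (horizontal axis) and at 8 months (vertical axis), grey for all genes tested and red for the 8 growth arrest genes, with dashed lines at 1.5-fold. Plk3 and Gadd45g lie beyond the lines in the upper right and Gadd45b in the lower left, while Sesn1 is past the line at 8 months only.

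Of the genes that feed back on p53, Ccng1 rose and Mdm2 did not pass the test. Ccng1 encodes cyclin G1, a classic p53 target that brings the phosphatase PP2A to Mdm2. It read 8.07 at both ages in the KO-labelled arrays, against 7.58 and 7.68 in the WT-labelled arrays. The KO-labelled arrays were the higher at both ages. The differences were 0.49 and 0.39, the mean 0.44 (SE 0.08) and the limma adjusted p 0.0044. Mdm2, the ubiquitin ligase that degrades p53 and is itself induced by it, read 5.80 and 5.84 in the KO-labelled arrays, against 5.73 and 5.83 in the WT-labelled arrays. The genotypes overlapped, with a mean difference of 0.04 (SE 0.11) and a limma adjusted p of 0.85.

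The upstream windows of Ccng1 and Mdm2 are shown because both hold a match to the p53 half-site, in capitals beside the NF-Y box in either orientation, although only Ccng1 passed the test. They are RefSeq sequences of build GRCm38.p6 at chr11:40755287-40755536 for Ccng1 and chr10:117710759-117711008 for Mdm2, both on the minus strand.
Ccng1: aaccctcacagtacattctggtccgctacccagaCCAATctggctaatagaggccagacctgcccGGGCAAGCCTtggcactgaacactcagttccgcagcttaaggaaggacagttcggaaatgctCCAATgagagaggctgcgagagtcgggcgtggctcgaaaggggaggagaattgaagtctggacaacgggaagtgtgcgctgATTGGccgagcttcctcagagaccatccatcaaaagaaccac
Mdm2: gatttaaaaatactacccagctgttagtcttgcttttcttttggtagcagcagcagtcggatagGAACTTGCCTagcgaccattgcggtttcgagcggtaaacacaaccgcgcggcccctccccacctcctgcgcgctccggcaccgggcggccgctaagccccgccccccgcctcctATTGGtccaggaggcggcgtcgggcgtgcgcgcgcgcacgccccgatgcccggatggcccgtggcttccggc
The half-site was searched as RRRCWWGYYY, where R is A or G, W is A or T and Y is C or T. Over the 12 windows of the 10 genes, 6 held a p53 half-site, against 7.13% of all windows. The genes were chosen as p53-responsive, and this share is no result of the arrays. What it owes to that choice was not tested. The windows with a half-site were those of Gadd45a, Bax, Mdm2 and Ccng1, and 1 window each of Sesn1 and Cdkn1a. A pair of half-sites forming a full p53 response element was found in 1, a window of Cdkn1a, and in 0.0639% of all windows. The known p53 elements of several of these genes lie in introns or farther upstream and are outside the windows. No overlap occurred between the motifs put in capitals.

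Sesn1 encodes sestrin 1, a p53 target that restrains the growth kinase mTORC1 when leucine is scarce. It read 5.25 and 5.02 in the KO-labelled arrays, against 5.69 and 5.74 in the WT-labelled arrays. Both KO-labelled values lay below both WT-labelled values. It was 1.35-fold lower at 2 months and 1.64-fold lower at 8 months, with a mean difference of -0.57 (SE 0.12) and a limma adjusted p of 0.0079. Of its relatives, Sesn2 was at -0.12 and -0.64 and Sesn3 at 0.17 and -0.17, and neither passed the test. Sesn3 is likewise named beyond the rule.

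The probe set listed for both 4930567H12Rik and Cdkn1a, the gene of the CDK inhibitor p21, read 3.95 and 4.07 in the KO-labelled arrays, against 3.74 and 4.10 in the WT-labelled arrays. Signal from the pair cannot be told apart. These values lay not far above the array medians of 3.52 to 3.58. Whether the probe set was above background is not known, so little can be read from its differences. The KO minus WT difference was 0.20 at 2 months and -0.03 at 8 months, and the genotypes overlapped.

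No gene of the 8 was 1.5-fold apart between 8 and 2 months in either genotype, beside 0.652% of all genes in each (0.376% higher and 0.276% lower at 8 months in KO-labelled arrays, 0.209% and 0.443% in WT-labelled arrays). The additive limma model called none of them for age, with none at an unadjusted p under 0.05, and 0.00836% of all genes (431 at an unadjusted p under 0.05). The age differences of Plk3 were -0.12 in KO-labelled and 0.36 in WT-labelled arrays, and those of Gadd45g were -0.05 and 0.39. For Gadd45b they were 0.36 and 0.06. The genotype differences of these 3 genes were accordingly smaller at 8 than at 2 months, by 0.48 for Plk3, 0.43 for Gadd45g and 0.30 for Gadd45b in size, and that of Sesn1 was larger by 0.28. Over all genes tested the median size of this change was 0.16. With 1 array per group it could not be tested.

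**Figure D3:**
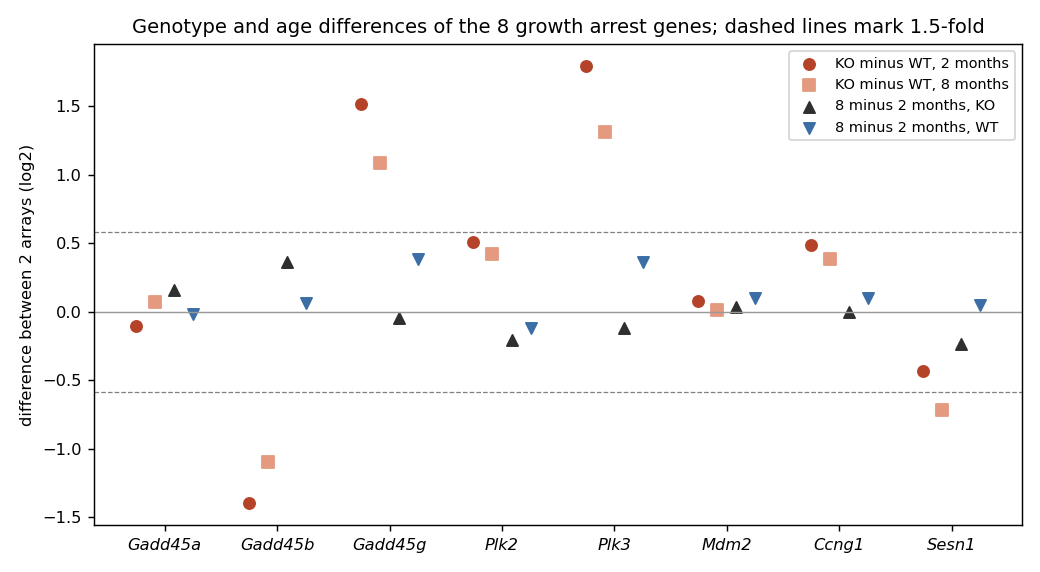
Differences between 2 arrays (vertical axis, log2) for the 8 growth arrest genes, with KO minus WT at 2 and 8 months as circles and squares and 8 minus 2 months in the KO-labelled and WT-labelled arrays as triangles, and dashed lines at 1.5-fold. All age differences lie inside the dashed lines, and the genotype differences of Plk3, Gadd45g and Gadd45b lie outside at both ages.

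Other genes of the p53 pathway were read from lists chosen by role. Of 13 other targets with roles in cell death that were tested, 1 rose and 0 fell, with median differences of 0.07 and 0.11. The one that rose was Trp53inp1, a p53-induced nuclear protein that also promotes autophagy, with 1.04 at 2 months and 0.84 at 8 months (mean 0.94, SE 0.08, limma adjusted p 6.7e-06). The lowest mean of the list was that of Bid, a death-promoting BCL2 relative, -0.18 (-0.28 and -0.08), which did not pass. The death effectors Bbc3 (Puma), at -0.33 and 0.11, and Pmaip1 (Noxa), at -0.18 and 0.05, did not pass either. Both are named beyond the fixed rule, after their values were seen. Bbc3 read 4.23 to 4.56 on the 4 arrays. Pmaip1 read 3.47 to 3.65, near the array medians, so whether it was above background is not known.

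Of 13 other targets in growth arrest and DNA repair, 1 rose and 1 fell, with medians of 0.04 and 0.02. Btg2, an antiproliferative gene that is both a p53 target and an immediate early gene, stood at a mean of 3.48 (SE 0.09, limma adjusted p 1.9e-10). Dgka, a diacylglycerol kinase, fell, with -1.07 and -0.99 (mean -1.03, SE 0.12, limma adjusted p 8.4e-05). Of 10 targets in metabolism and stress, 1 rose and 2 fell, with medians of -0.11 and -0.16. Rps27l rose by a mean of 0.43, and the stress-induced Ndrg1 and the reductase Dcxr were at means of -0.41 and -0.37, with limma adjusted p-values of 0.021, 0.026 and 0.01. Each of these 3 calls was lost in at least 1 alternative.

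Among 8 genes for p53 regulators, 1 rose, the kinase Hipk2, which phosphorylates p53, with 0.44 and 0.41 (limma adjusted p 0.0057). Atr, the kinase of replication stress, had the lowest mean of the list, -0.05 (0.02 and -0.13), and did not pass. Trp53 itself is not analysed here. Of 13 paralogs of the 10 genes 0 passed, with means between -0.38 for Sesn2 and 0.20 for the death effector Bak1.

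Of 7 partners and downstream kinases of GADD45 proteins, 1 fell and 0 rose. Map2k6, the kinase that activates p38, read 5.15 and 4.82 in the KO-labelled arrays, against 5.82 and 6.03 in the WT-labelled arrays. Its differences were -0.67 and -1.22, with a mean of -0.95 (SE 0.14) and a limma adjusted p of 0.00062. Map3k4, the GADD45-bound kinase above it, was at 0.17 and 0.31 and did not pass. Of 8 genes tested from a list of cyclins, CDKs and Rb1, the retinoblastoma protein gene, 2 rose, cyclin D1 (Ccnd1) by a mean of 0.46 and Cdk4 by 0.31, with limma adjusted p-values of 0.0086 and 0.045, and each call was lost in at least 1 alternative. The lowest of that list by the mean of both ages, Ccnd3, was at -0.08 and -0.24 (mean -0.16). The proliferation list held 14 genes with a probe set of their own, of which 8 were past the filter on low values. Of these 8 genes 0 passed the test, with medians of -0.29 and -0.02. By the mean of both ages the mitotic cyclin Ccnb2 was the lowest, at -0.46 and -0.42 (mean -0.44, limma adjusted p 0.051), and Tyms the highest, at 0.14 and 0.00 (mean 0.07). Ccnb2 passed the test without the intensity trend (adjusted p 0.043) and under cyclic loess (0.035). It read 3.38 to 3.95 on the 4 arrays, near the array medians, so whether it was above background is not known.

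Of 13 immediate early genes tested, induced by stimuli without new protein synthesis, 12 rose, with medians of 1.84 and 2.03. Fos, Egr2, Jun, Atf3, Nr4a1 and Egr1 had means between 2.32 and 3.70, and Klf6 was the one that did not pass, at 0.17 and 0.15. The part of this response in the values of Plk3, Gadd45g and Plk2 was not tested.

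**Figure D4:**
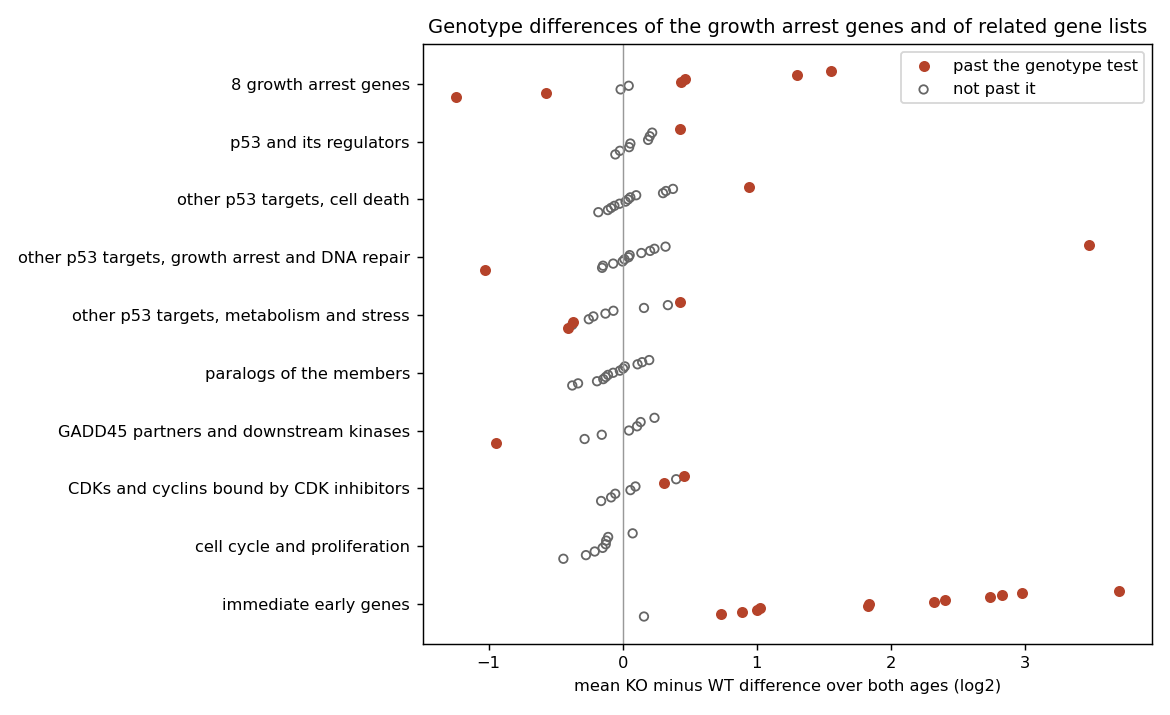
Mean KO minus WT difference over both ages (horizontal axis, log2) of the 8 growth arrest genes and of genes in 9 related lists, 1 point per gene, filled where the gene passed the genotype test and open where it did not. Most points of the p53 lists lie near 0 and most immediate early genes lie to the right of 0.7.

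Markers of other liver cells were read beside these values. Of 9 Kupffer cell and macrophage markers tested 2 rose, with Cd5l highest at a mean of 0.72 and Clec4f lowest at 0.01, and the linear values of the listed markers summed to 520.6 and 473.1 in the KO-labelled arrays, against 434.7 and 368.7 in the WT-labelled arrays. Of 10 stellate cell and fibroblast markers 5 fell and 1 rose, from Acta2 at -1.94 to Reln at 0.29. The call of Reln was lost in 3 of 8 alternatives. The sums of the 10 were 1210.9 and 1167.2 against 1386.2 and 1229.9. Bright genes weigh most in such sums. Dcn, which did not pass, read 9.34 to 9.46 log2, and Acta2 read 4.43 to 6.48. Of 10 endothelial markers 1 rose, with Cdh5 highest at 0.45 (a call lost without the filter, adjusted p 0.07) and Vwf lowest at -0.20, and sums of 596.3 and 557.6 against 579.4 and 569.1. Of 4 cholangiocyte markers 1 fell, with Krt23 at -0.66 and Krt7 at 0.01, and sums of 72.4 and 69.8 against 86.5 and 77.4. Of 2 lymphocyte and neutrophil markers past the filter 0 passed, Ptprc at 0.34 and Cd3e at -0.19, with sums of 90.6 and 93.3 against 93.1 and 87.0. Each sum covers all listed markers with a probe set of their own, also those under the filter. These were 10 for Kupffer cells and macrophages, 6 for cholangiocytes, and 10 for lymphocytes and neutrophils. The hepatocyte markers ran from Cps1 at -0.24 to Ttr at 0.13, with sums of 34709.8 and 33197.3 against 33835.7 and 35104.0. No RMA value is 0. The part of these cell types in the growth arrest genes was not tested.

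The genes most like each of the 6 that passed were taken as the 2 at the smallest Euclidean distance over the 4 arrays, after each gene was centred on its own mean. For Gadd45g these were Impact, at a distance of 0.04, and the predicted gene Gm21286, at 0.13. Impact, an inhibitor of the kinase Gcn2, read 8.06 and 8.02 in the KO-labelled arrays, against 6.57 and 6.90 in the WT-labelled arrays. For Plk3 they were Nxpe2 at 0.14 and Ccnb1ip1 at 0.16, the second with WT-labelled values of 2.74 and 2.95 under the filter value, and for Gadd45b the monooxygenase Fmo2 at 0.23 and the sodium-calcium exchanger Slc8b1 at 0.23. For Sesn1 they were the carboxylesterase Ces2a at 0.03 and Tor1b at 0.05, for Ccng1 the DNA ligase Lig4 and the collagen Col4a2, both at 0.02, and for Plk2 4732465J04Rik at 0.01 and the cyclophilin Ppih at 0.02. With 4 arrays and 11963 genes, near matches are many for small differences and fewer for large ones.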

How the data were processed

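The deposited files hold RMA log2 values per probe set for 4 arrays. The submitters' processing notes name Affymetrix Expression Console (1.0v) as the software. RMA corrects background, quantile normalizes and summarises probes. Which arrays were normalized together and the probe annotation's build are not given in the sources used here. An array has no read depth, and the number of arrays limits the precision.

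The platform table names a single gene for 21789 probe sets out of 35556 and more than 1 gene for 1621, and leaves 12146 unlisted. Symbols were checked by gene identifier against RefSeq (GRCm38.p6), which changed 0. Probe sets of a gene were averaged, and each of the 8 genes reported has 1. Genes whose mean exceeded the 40th percentile (3.34) were tested, 11963 of 19938. An additive model of genotype and age was fitted with lmFit and eBayes (intensity trend) of limma 3.58.1 in R 4.3.3, with Benjamini-Hochberg adjustment over all genes tested, 1 residual and 11.3 prior degrees of freedom. With 1 pool per group its p-values measure neither the spread between pools nor that between animals. The fit was also run on simulated arrays with independent noise. Such arrays hold no spread between pools or animals, so that run cannot show whether the p-values hold here. Per array pair, genes at least 1.5-fold apart were counted.

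Named genes are the 10 genes, Sirt6, up to 6 genes past the test plus the highest and lowest of each list, the highest and lowest of each marker list, and the 2 nearest genes by pattern. Plk1, Plk5, Sesn3, Bbc3 and Pmaip1 were added after their values were seen. The members and lists were chosen with earlier results of these data known. Promoters cover 250 bases before the RefSeq start sites.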

Additional observations from a re-analysis of the deposited data

Results flagged for a closer look

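A few genotype differences had opposite signs at the 2 ages, each from 1 array per group, so the difference between ages was not tested. In Gadd45a, KO minus WT at 8 months exceeded that at 2 months by 0.18 log2 units. The probe set shared by 4930567H12Rik and Cdkn1a changed by -0.24 in the same sense. Among the list and marker genes named, the change was -0.16 for Atr, 0.45 for Cd3e, 0.10 for Clec4f and 0.38 for Krt7. Among those added after their values were seen it was 0.45 for Plk1, 0.45 for Bbc3, 0.23 for Pmaip1 and -0.34 for Sesn3. Over all genes tested, 33.8% had opposite signs at the 2 ages.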

How the results depend on the processing

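The genotype calls of the 6 growth arrest genes kept their direction and stayed past the adjusted p of 0.05 in all 8 alternatives (7 for Gadd45b), which changed the filter, the intensity trend, robust estimation, the scaling or the choice of probe set. Gadd45b was not tested with the filter at the 60th percentile, which left 1 of the 8 genes that fell. The weakest limma adjusted p over these alternatives was 0.046 for Plk2, 0.045 for Ccng1, 0.036 for Sesn1, 0.0023 for Gadd45b, 0.00084 for Gadd45g and 0.00039 for Plk3. Counting only 2-fold differences left 1 gene lower at 8 months, Gadd45b. The sign turned for Mdm2 when quantile normalized again (-0.0002), for Gadd45a (0.0149) and Sirt6 (0.0002) with arrays centred on their medians, and for Clec4f when quantile normalized again (-0.0434) or under cyclic loess (-0.0252), and likewise for Sesn3 (-0.0437 and -0.0306), none of which passed the test. Over all genes, the 815 that rose and 510 that fell became 463 and 289 without the filter, 521 and 325 without the trend, and 1087 and 880 under cyclic loess. The 1 gene called for age became 0 to 17. The calls of Cdk4 (adjusted p 0.12 without the filter), Rps27l (0.088), Ndrg1 (0.071), Cdh5 (0.07) and Reln (0.12) were lost without the filter, and those of Dcxr (0.077) and Ccnd1 (0.051) without the trend. Calls were gained for Cps1 with the filter at the 60th percentile (adjusted p 0.039), robust estimation (0.043), quantile normalization (0.017) and cyclic loess (0.0021), for Ttr under cyclic loess (0.048), and for Ccnb2 without the trend (0.043) and under cyclic loess (0.035). No paired analysis was possible because each group is 1 array with no replicate to pair by number. The additive model itself sets KO against WT within each age. Depth is not defined for arrays, and dim probe sets such as that of Gadd45b in the KO-labelled arrays limit what their differences show.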
